A study of Mus musculus with 7 samples.

Results

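Egr1, Egr2, Egr3, Nr4a1, Nr4a2, Nr4a3, Klf2, Klf4 and Klf6 encode transcription factors of 3 families whose genes can be switched on within minutes of a signal. These 9 members were found by name among the 50435 gene rows of 1 table of normalized expression, and each matched 1 row. It holds RNA of mouse marrow cells that were labelled sinusoidal endothelial and sorted as CD31 positive and as negative for Sca1, CD45, Ter119, Gr1 and CD11b. In both groups irradiated wild-type hosts carried a Zbtb46dtr marrow graft, which places a diphtheria toxin receptor under Zbtb46 in graft cells and leaves host cells without it. At 8 weeks the mice of 4 samples received 100 µl of PBS and those of 3 samples 200 ng of diphtheria toxin (DT) in the same volume, into the abdomen, and cells were taken 1 day later. DT was given to ablate classical dendritic cells, and DT against PBS is the comparison the design implies. The labels call the samples biological replicates without naming animals.

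The Egr proteins are zinc finger factors. Their genes are classic targets of growth factor signals that run through the ERK kinases to serum response factor (SRF) and its ETS partners, and the Nab proteins repress their activity. The Nr4a proteins are orphan nuclear receptors, controlled mainly by how much of them is made and induced through cAMP, calcium and antigen receptor signals. The Klf proteins bind GC-rich boxes. Klf2 and Klf4 are known from endothelium under blood flow, where the kinase Erk5 induces them, and Klf2 also from resting lymphocytes and Klf4 from monocytes, while Klf6 is widely expressed and known from macrophages.

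The upstream sequences of 4 members are shown. Of these, Nr4a1, Egr2 and Klf6 lay higher in every DT library than in any PBS library and Nr4a2 lay lower. Egr1 and Klf4 also lay higher in every DT library, but their sequences are not shown. The sequences are RefSeq promoters on GRCm38.p6 (mm10), up to 250 bases before a start, written along the gene's strand. Each is cut at the first annotated exon base within it, where there is one. The Nr4a1 window lies inside the annotated gene, which starts at 101254269, and precedes an internal start. In all, 7 of the 9 members were matched, and of 5 listed Egr2 starts the third is shown. Capitals mark, on either strand, the SRF CArG box, TGACG, the core of the cAMP response element, the GC box GGGCGG, the TATA box TATAAA, the AP-1 site TGANTCA, the Egr site GCGTGGGCG and the Nr4a site AAAGGTCA.
Egr2, plus strand, chr10:67537619-67537868: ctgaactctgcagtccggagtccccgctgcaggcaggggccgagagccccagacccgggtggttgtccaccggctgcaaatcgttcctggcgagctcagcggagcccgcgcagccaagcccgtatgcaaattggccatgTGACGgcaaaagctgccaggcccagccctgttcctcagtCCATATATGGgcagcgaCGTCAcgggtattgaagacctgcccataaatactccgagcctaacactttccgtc
Nr4a1, plus strand, chr15:101266596-101266845: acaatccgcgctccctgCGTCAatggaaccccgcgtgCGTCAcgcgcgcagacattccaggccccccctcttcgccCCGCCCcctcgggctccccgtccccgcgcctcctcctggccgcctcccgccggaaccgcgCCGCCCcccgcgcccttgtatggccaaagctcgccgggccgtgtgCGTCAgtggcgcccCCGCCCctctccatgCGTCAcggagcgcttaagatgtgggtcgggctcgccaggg
Nr4a2, minus strand, chr2:57124004-57124253: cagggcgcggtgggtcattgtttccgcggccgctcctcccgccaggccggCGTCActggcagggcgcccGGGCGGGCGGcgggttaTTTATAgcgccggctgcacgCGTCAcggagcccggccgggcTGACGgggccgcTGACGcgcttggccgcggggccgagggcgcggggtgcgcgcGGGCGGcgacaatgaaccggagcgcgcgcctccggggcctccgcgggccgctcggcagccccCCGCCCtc
Klf6, plus strand, chr13:5861239-5861481: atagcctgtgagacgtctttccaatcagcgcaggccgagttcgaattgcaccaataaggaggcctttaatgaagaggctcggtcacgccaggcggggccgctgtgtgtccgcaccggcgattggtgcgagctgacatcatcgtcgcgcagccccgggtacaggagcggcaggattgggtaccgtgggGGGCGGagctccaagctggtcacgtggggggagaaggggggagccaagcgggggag

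The Egr2 window lies in an intron of longer annotated Egr2 transcripts and holds 1 CArG box, 72 bases before the start, a box found in 1.47% of 32851 mouse promoters over the same 250 bases. It also holds 2 TGACG cores, which 17.8% of promoters carry. Motifs differ between the Egr2 starts. The first, at 67535499, has 0 CArG boxes and 4 GC boxes in 226 bases. The second, at 67537566, has 1 CArG box and 1 GC box in 250 bases. Nr4a1 and Nr4a2 each hold 4 TGACG cores within 250 bases. Nr4a1 holds 3 GC boxes and Nr4a2 holds 4, where 32.7% of promoters have at least 1. The share of promoters with as many was not counted. G and C make up 74.4% of the Nr4a1 window and 80.0% of the Nr4a2 window, beside a median of 52.4% over all promoters. Nr4a2 also has the TATA letters, on the strand opposite to the gene, which 12.4% of promoters hold on either strand. The 243 bases of Klf6 hold 1 GC box and none of the other capitalized motifs. Klf4 holds 4 GC boxes and 1 TGACG core in 250 bases, and Klf2 holds 2 GC boxes and 1 core in 221 bases. The full cAMP response element TGACGTCA, of which TGACG is part, was found in none of these 6 windows and is in 1.55% of promoters. The ETS core GGAA, not capitalized, is in 93.4% of promoters. Such matches describe the letters in these windows and show no binding.

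Values are in RPM, reads scaled to 1000000 reads of a library, and a library's smallest step put its depth at 33200000 to 51200000 reads. A signal of 3 reads equals 0.0585 to 0.0904 RPM, a floor for counting error only. Limma was run on the 14100 genes averaging 1 RPM or more, and 32% passed an adjusted p of 0.05, with 13.4% higher and 18.6% lower in DT. Neutrophil, monocyte and macrophage, B lineage and erythroid markers far exceeded those of the labelled cell type. The summed level of 10 endothelial genes was 11.8 to 47.0 RPM in PBS and 18.4 to 29.5 RPM in DT. Most of it was 1 gene, Egfl7, which averaged 27.9 ± 14.4 (SD, n = 4) and 13.9 ± 3.33 RPM (SD, n = 3). For Egfl7 the groups overlapped, with PBS replicate 1 at 8.19 RPM. Esam averaged 0.813 ± 1.16 and 2.81 ± 1.96 RPM, and Cdh5, the endothelial cadherin, 0.811 ± 1.27 and 2.10 ± 1.18 RPM. Cldn5 and Emcn of the same list never reached 1 RPM. All 13 of 13 neutrophil markers averaged at least 1 RPM, and their sum was 1643 to 3117 RPM in PBS and 55093 to 58964 RPM in DT. The sum of 13 monocyte and macrophage markers was 388 to 769 and 6810 to 8507 RPM. Sums were 5806 to 10479 and 4889 to 5919 RPM for B lineage, 54.2 to 123 and 377 to 401 RPM for T and natural killer, 34.2 to 58.5 and 55.0 to 71.0 RPM for classical dendritic, 51.9 to 214 and 50.7 to 153 RPM for megakaryocyte markers. The difference in the T and natural killer sum was mostly Nkg7, at 28.0 ± 14.5 and 270 ± 20.8 RPM. Cd2 of that list was at 56.3 ± 19.2 and 56.5 ± 7.25 RPM. Within the dendritic list Zbtb46, which drives the receptor, averaged 9.21 ± 6.62 and 1.57 ± 1.55 RPM, and Cd209a 2.11 ± 0.874 and 12.6 ± 0.546 RPM. For Zbtb46 the groups overlapped, with PBS replicate 1 at 1.54 RPM and DT replicate 2 at 3.12 RPM. The 6 sinusoidal markers summed to 11.0 to 17.8 and 98.7 to 342 RPM, which was mostly Vcam1, while Plvap, a marker of vessel pores, averaged 1.71 ± 1.38 and 0.148 ± 0.236 RPM. DT replicate 3 stood apart in Vcam1 and in several members, and values without it are given. In such bulk samples, fewer cells of a type and less RNA per cell cannot be told apart, and the part of these marker sums in the results on the 9 genes was not tested.

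Of the 9 members, 5 reached the minimum mean and 4 of these, Egr1, Nr4a1, Klf4 and Klf6, were higher in DT, against 13.4% of all tested genes. In these 4 the groups did not overlap, as held with DT above PBS for 16.1% of tested genes. Klf2 did not pass. Egr2, Egr3, Nr4a2 and Nr4a3 were too low for the test across genes. Among these low members Egr2 lay higher in every DT library than in any PBS library, and Nr4a2 lower. The 5 tested members had a median log2 change of 1.71, beside -0.23 over all genes tested.

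**Figure D1:**
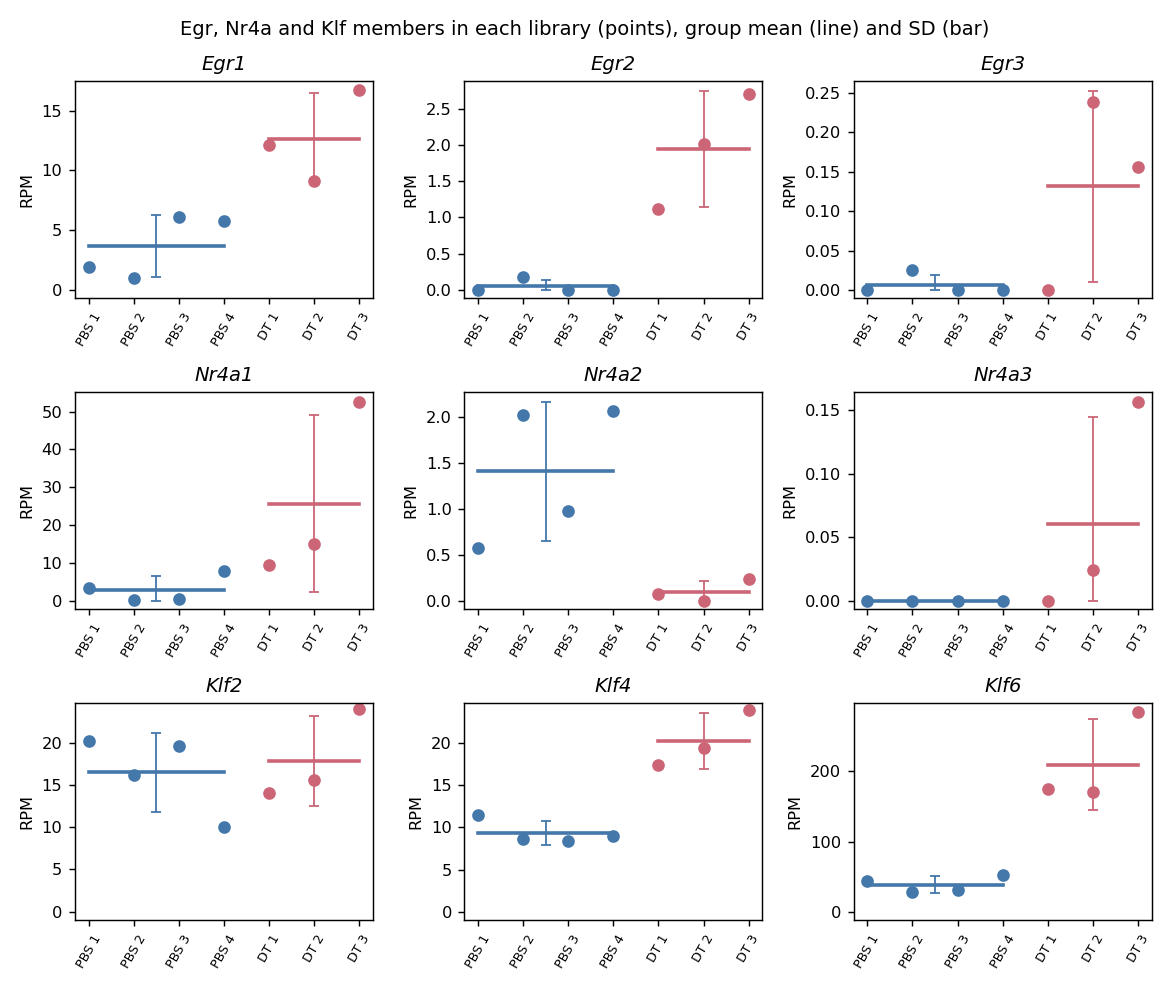
Expression of the 9 members in each library, in RPM on linear axes that differ between panels; points are libraries, lines group means and bars the SD, cut at 0 where they would cross it. DT lies above every PBS library for Egr1, Egr2, Nr4a1, Klf4 and Klf6 and below for Nr4a2, and the groups overlap for Egr3, Nr4a3 and Klf2.

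Egr1, the most abundant Egr gene here, lies on chromosome 18 at 34859823 to 34864984 (mm10, GENCODE vM21), and no other annotated gene overlaps it or any other member. Egr1 was at 1.87, 0.971, 6.12 and 5.72 RPM in PBS replicates 1 to 4 and at 12.1, 9.13 and 16.7 RPM in DT replicates 1 to 3. PBS replicates 1 and 2 were low and 3 and 4 high, yet all stayed below DT. Egr1 rose by 1.71 on the log2(RPM + 1) scale (SE 0.48, limma, adjusted p = 0.0215), a 3.45-fold ratio of group means. The call was lost without DT replicate 1 (adjusted p = 0.0644), without DT replicate 3 (0.0911), without both samples numbered 1 (0.0678) and with no filter on low genes (0.0908).

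Egr2, known from macrophages and from T cell tolerance, was at 0.179 RPM in PBS replicate 2, equal to 7 reads, and had no read in PBS replicates 1, 3 and 4. In DT replicates 1 to 3 it was at 1.11, 2.02 and 2.71 RPM, equal to 45, 85 and 139 reads. All DT libraries were thus far above the floor and 3 of 4 PBS libraries at 0. The difference of 1.90 RPM had an exact two-sided permutation p of 0.0286, the smallest that 35 splits allow, and with any library left out no split could go below 0.05. Among the 15116 detected genes under the minimum mean, 4.25% had DT above PBS with no overlap. With no filter, Egr2 was higher by 1.46 on the log2(RPM + 1) scale (limma, adjusted p = 0.00681).

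Egr3, a close relative of Egr2, gave 1 read in PBS, in replicate 2, and 0, 10 and 8 reads in DT replicates 1 to 3. The groups overlapped at 0, and the exact permutation p was 0.143. Egr3 was at most 0.238 RPM in any library, and a difference was not detectable at this depth.

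Nr4a1 (Nur77), needed for the patrolling type of monocyte, differed widely between libraries of a group. It was at 3.34, 0.256, 0.343 and 7.84 RPM in PBS replicates 1 to 4 and at 9.50, 15.0 and 52.5 RPM in DT replicates 1 to 3. PBS replicates 1 and 4 were above 2 and 3, and DT replicate 3 stood well above the other DT libraries, at 4.30 times their mean. Nr4a1 rose by 2.87 on the log2 scale (SE 0.75, limma, adjusted p = 0.0170), an 8.71-fold ratio of means. Without DT replicate 3 the ratio was 4.15-fold and the log2 change 2.19, and without PBS replicate 4 the ratio was 19.5-fold. The call missed the threshold without DT replicate 3 (adjusted p = 0.0773), with no filter (0.0898) and with voom on estimated reads (0.0555).

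Nr4a2 (Nurr1), best known from dopamine neurons, was at its highest in PBS. Its level was 0.572, 2.02, 0.975 and 2.07 RPM in PBS replicates 1 to 4, or 19, 79, 37 and 80 reads, and 0.0743, 0 and 0.234 RPM in DT replicates 1 to 3, or 3, 0 and 12 reads. The groups did not overlap, which held with DT lower for 4.49% of detected genes under the minimum mean, and the PBS mean was 13.7 times the DT mean, or 37.9 times without DT replicate 3. The exact permutation p was 0.0571, since another split of the libraries gave a difference as large. With no filter the log2 difference was -1.08 (limma, adjusted p = 0.0504).

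Nr4a3 (Nor1), often used to report T cell receptor signals, had no read in any PBS library and 0, 1 and 8 reads in DT. Its exact permutation p was 0.143, and 8 of its 9 reads came from DT replicate 3. Per kilobase of exon, Nr4a1 was the highest of the Nr4a genes in every DT library and in PBS replicates 1 and 4, and Nr4a2 was the highest in PBS replicates 2 and 3.

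Klf6 showed the change with the smallest p among the members. It was at 43.4, 27.8, 31.2 and 52.9 RPM in PBS replicates 1 to 4 and at 174, 170 and 284 RPM in DT replicates 1 to 3. DT replicates 1 and 2 were nearly equal and replicate 3 higher, and the lowest DT library, at 170 RPM, lay far above the highest PBS library, at 52.9 RPM. Klf6, on chromosome 13 at 5861482 to 5870394, rose by 2.41 on the log2 scale (SE 0.26, limma, adjusted p = 0.000128), a 5.39-fold ratio. It passed under all 19 alternatives run, with log2 changes of 2.17 to 2.63.

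Klf4 was at 11.5, 8.64, 8.35 and 9.03 RPM in PBS replicates 1 to 4 and at 17.4, 19.4 and 23.9 RPM in DT replicates 1 to 3. Its PBS libraries were tightly grouped and all lay below DT. Klf4 rose by 1.03 on the log2 scale (SE 0.23, limma, adjusted p = 0.00761), a 2.16-fold ratio, and missed the threshold only without DT replicate 3 among the alternatives run (0.0507).

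Klf2 was at 20.2, 16.2, 19.6 and 9.99 RPM in PBS replicates 1 to 4 and at 14.0, 15.6 and 24.0 RPM in DT replicates 1 to 3. PBS replicate 4 was low, DT replicate 3 high, and the groups overlapped. The log2 difference was 0.12 with a 95% interval of -0.53 to 0.77 (limma, adjusted p = 0.786), which leaves room for a change of either sign within that range. Its sign turned without PBS replicate 4 (-0.090) or DT replicate 3 (-0.10).

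**Figure D2:**
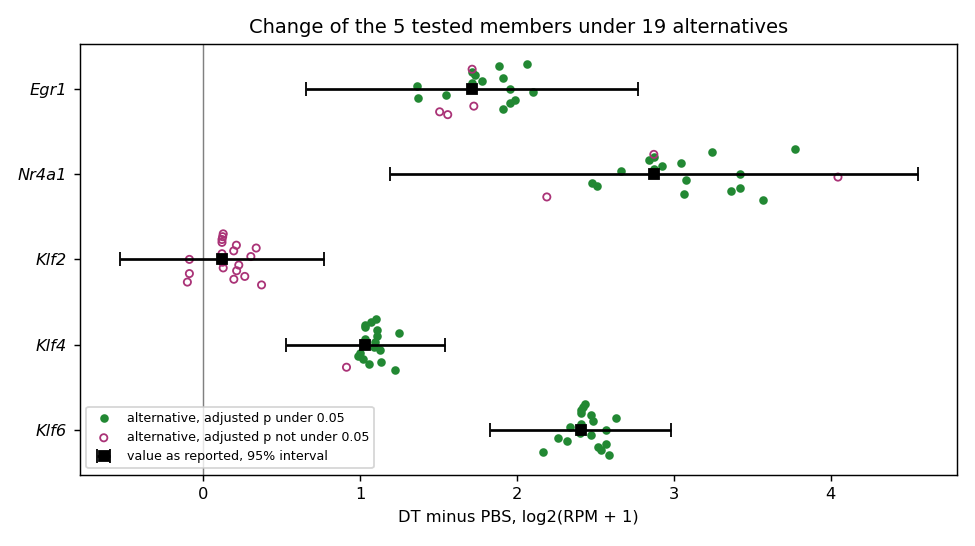
DT minus PBS difference of the 5 tested members in log2(RPM + 1); squares are the values as reported with 95% intervals, filled circles alternatives with an adjusted p under 0.05 and open circles those without. Klf6 has filled circles alone, Klf2 open circles alone around 0, and Egr1, Nr4a1 and Klf4 have 4, 3 and 1 open circles.

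Ratios between Klf members were also taken within each library, where scaling has no part. The ratio of Klf6 to Klf2 in RPM was 2.15, 1.71, 1.60 and 5.30 in PBS replicates 1 to 4 and 12.4, 11.0 and 11.8 in DT replicates 1 to 3. PBS replicate 4, low in Klf2 and high in Klf6, was nearest to DT without reaching it. The ratio of Klf4 to Klf2 was 0.427 to 0.904 in PBS and 0.998 to 1.25 in DT, and that of Klf6 to Klf4 was 3.22 to 5.86 in PBS and 8.76 to 11.9 in DT. For Nr4a1 to Egr1 the groups overlapped, at 0.0561 to 1.79 and 0.785 to 3.14. Exact permutation of the log2 ratios gave p = 0.0571 for Klf6 to Klf2 and for Klf4 to Klf2, 0.0286 for Klf6 to Klf4 and 0.286 for Nr4a1 to Egr1, and none passed after Benjamini-Hochberg adjustment over the 4 ratios (lowest 0.0762). These ratios were chosen after the values were seen.

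**Figure D3:**
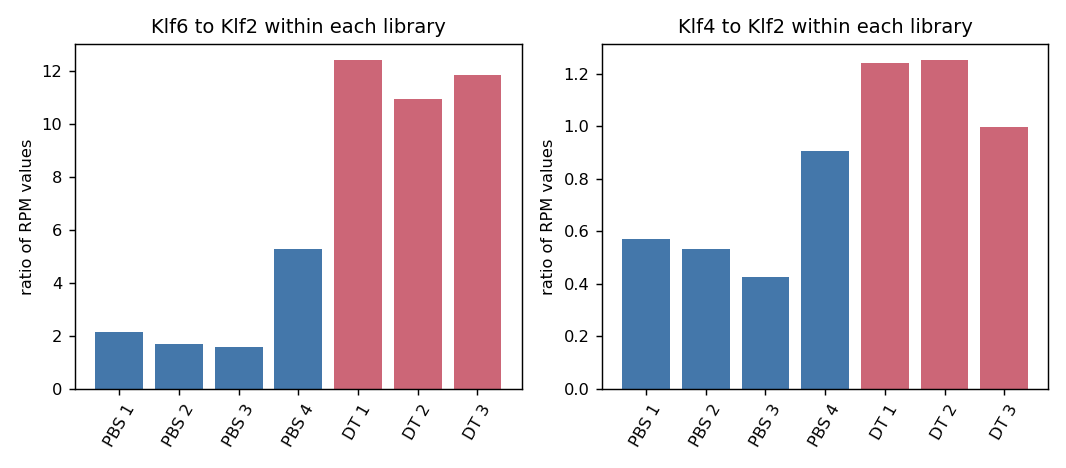
Ratio of RPM values within each library, Klf6 to Klf2 on the left and Klf4 to Klf2 on the right, bars starting at 0, PBS in blue and DT in red. The Klf6 to Klf2 ratio is 1.60 to 5.30 in PBS and 11.0 to 12.4 in DT, and the Klf4 to Klf2 ratio is 0.427 to 0.904 and 0.998 to 1.25.

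Levels of different genes were compared per kilobase of exon. In PBS, Klf2 and Klf6 led with 8.92 ± 2.52 and 8.84 ± 2.62 RPM per kilobase (SD, n = 4) and overlapped, followed by Klf4 with 3.07 ± 0.469. Nr4a1 at 0.839 ± 1.02 and Egr1 at 0.818 ± 0.586 overlapped, as did Egr1 and Nr4a2 at 0.347 ± 0.185, and Egr2 lay below all of these at 0.0132 ± 0.0263. In DT, Klf6 alone led with 47.7 ± 14.7 RPM per kilobase (SD, n = 3), with no overlap with Klf2 at 9.66 ± 2.90. Nr4a1 at 7.31 ± 6.68 overlapped with Klf2, with Klf4 at 6.64 ± 1.09 and with Egr1 at 2.82 ± 0.853, while Klf4 and Egr1 did not overlap. Egr2 at 0.574 ± 0.236 overlapped with no other member, and Egr3, Nr4a2 and Nr4a3 were at or below 0.0298 on average. Nr4a2 thus went from the sixth place in PBS to the last 3 in DT, and Klf6 moved from beside Klf2 to well above it.

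DT replicate 3 held the highest DT value of all 5 tested members, as did 31.1% of all tested genes and 40.7% of those higher in DT. The excess over the mean of the other DT libraries ran from 1.30 times for Klf4 to 4.30 times for Nr4a1. The same library was highest in DT for 16 of 20 other immediate early genes, 4 of 10 heat shock genes and 8 of 22 upstream genes. It had the highest DT sum of monocyte and macrophage markers, 8507 against 6810 and 7170 RPM, and the highest Vcam1, which encodes a leukocyte adhesion molecule, 334 against 95.8 and 147 RPM. Its neutrophil sum of 56351 RPM lay between the other DT libraries. The part of these in the members' values was not tested. Without DT replicate 3, 1 of the 5 tested members, Klf6, passed.

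Of the other immediate early genes, 20 of 22 were tested, and 11 rose, 2 fell and 7 did not pass. Their median log2 change was 1.29, beside -0.23 over all tested genes, of which 13.4% were higher and 18.6% lower in DT. Fos, the AP-1 subunit, rose from 15.2 ± 6.30 to 244 ± 112 RPM, and in DT was at 200, 161 and 371 RPM in replicates 1 to 3, the order also seen for Klf6 and Egr1. Ier3, a survival gene, rose from 1.75 ± 1.24 to 45.1 ± 14.8 RPM. Fosl2 and Junb, further AP-1 subunits, rose 6.07-fold and 4.91-fold. Zfp36l1, which marks RNAs for decay, and Jund, an AP-1 subunit, fell, but lost their calls under 5 and 10 of 19 alternatives, median-ratio scaling among both. Fosb, Jun, Btg1, Btg2, Csrnp1, Myc and Ppp1r15a did not pass. Rgs1, Ptgs2, Zfp36, Ier2, Atf3, Ier5 and Gadd45b made up the rest of those that rose. Of these, Gadd45b lost its call under 6 of 19 alternatives, and Atf3 under 1 of the 17 that tested it, voom on estimated reads.

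Of 22 kinases and factors upstream of the members 3 rose, 4 fell and 15 did not pass, shares near the 13.4% and 18.6% of all tested genes, with a median log2 change of -0.15. Mapk3, which encodes Erk1, rose from 23.4 ± 2.31 to 56.6 ± 6.78 RPM. Elk4, an ETS partner of SRF, fell from 99.8 ± 9.16 to 48.1 ± 7.53 RPM, and Mkl1, an actin-regulated SRF partner, rose 2.19-fold. These 3 calls held under all 19 alternatives. Srf, Elk1, Creb1 and Mapk7, which encodes Erk5, did not pass.

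Of 11 tested feedback regulators, phosphatases and Sprouty or Spred genes, 1 rose, 2 fell and 8 did not pass, which is also near the shares of all tested genes. Dusp1, an immediate early phosphatase of MAP kinases, rose from 4.40 ± 1.29 to 27.8 ± 10.9 RPM, with DT replicate 3 again highest at 40.1 RPM. Dusp2 and Dusp16, of the same class, fell. Dusp2 went from 32.1 ± 8.93 to 12.9 ± 3.96 RPM. Dusp16 went from 10.2 ± 2.88 to 4.10 ± 0.417 RPM and lost its call without DT replicate 2 or 3. Among the Nab corepressors and the Rxr partners of Nr4a proteins, Nab1, Rxra and Rxrb were tested with limma and none passed, although 2 of the 3 had an unadjusted p under 0.05, and voom called 0 of them. Rxra was at 2.39 ± 2.05 and 6.44 ± 1.31 RPM (adjusted p = 0.0681) and Rxrb at 22.9 ± 4.88 and 14.9 ± 3.37 RPM (0.0978).

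Of the other genes of the Klf and Egr families, 9 of 16 were tested, and 2 rose, 2 fell and 5 did not pass. Of all tested genes, 13.4% were higher and 18.6% lower in DT. Klf7 and Klf10 rose 2.62-fold and 2.60-fold, from 17.3 ± 4.39 to 45.3 ± 5.97 RPM and from 63.0 ± 26.2 to 164 ± 52.5 RPM, under all 19 alternatives. Klf10, itself induced by TGF-beta, was highest in DT replicate 1, unlike the 5 tested members. Klf1, the erythroid factor, fell from 63.6 ± 45.3 to 2.69 ± 2.22 RPM, where the sum of 11 erythroid markers, Klf1 among them, was 954 to 10873 RPM in PBS and 1179 to 1564 RPM in DT. PBS replicate 1, lowest in that sum, had 5.15 RPM of Klf1, below DT replicate 2 at 5.26 RPM, so the groups overlapped. The PBS mean of Klf1 was 23.6 times the DT mean, or 45.1 times without DT replicate 2, and the call was lost with no filter and with voom. Klf16 fell from 10.1 ± 4.18 to 3.96 ± 0.566 RPM, a call lost under 9 of 19 alternatives.

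Known targets were taken from a short list for each factor pair. Their counts are to be read beside the 13.4% higher and 18.6% lower of all tested genes. Whether these genes responded to the factors was not tested. For Klf2 and Klf4, 2 of 6 tested genes rose and 4, S1pr1, Ccr7, Thbd and Cdkn1a, did not pass. Itgb7, an integrin of lymphocytes, rose 4.67-fold, from 9.88 ± 2.08 to 46.1 ± 12.6 RPM. Among 8 tested lymphocyte targets of Egr and Nr4a factors, Ndrg1 rose 1.93-fold, Cblb, a ubiquitin ligase that restrains T cells, fell from 24.3 ± 1.18 to 14.3 ± 0.668 RPM, and 6 did not pass. Ndrg1 lost its call under 6 alternatives, each removal of a DT library among them, and Cblb under 2, median-ratio scaling among them.

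Of 10 tested heat shock genes 1 rose, 3 fell and 6 did not pass, beside 13.4% higher and 18.6% lower of all tested genes. Hspa5, a chaperone of the endoplasmic reticulum, rose 1.58-fold. Hsp90aa1 was at 332, 1004, 591 and 646 RPM in PBS replicates 1 to 4 and at 276, 293 and 256 RPM in DT. It fell with no overlap but lost its call with no filter, without PBS replicate 4 and without each DT library in turn. Hspe1 and Hsph1 also fell and lost their calls under 10 and 11 of 19 alternatives.

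**Figure D4:**
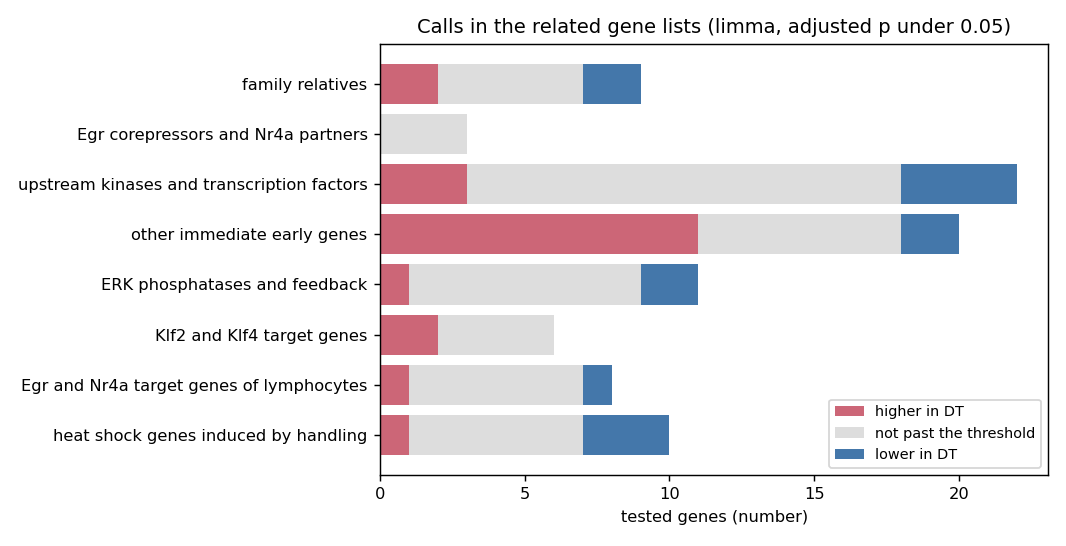
Number of tested genes in each related list that were higher in DT (red), lower (blue) or did not pass an adjusted p of 0.05 (grey). The list of other immediate early genes has 11 of 20 higher, and each of the other lists has at most 3 higher.

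Genes whose log2(RPM + 1) pattern over the 7 libraries was most like that of a member are named as a description, since the libraries form separate groups. For Klf6 these were Ifi204 (Pearson r = 0.996) and Ikbke (r = 0.995), an interferon-inducible gene and a kinase gene. For Klf4 they were H2-DMb1 (r = 0.999), which helps load class II molecules, and Fcgr1 (r = 0.993), a high-affinity Fc receptor. For Egr1 they were Qpctl (r = 0.997) and Plk3 (r = 0.989), and for Nr4a1 Plxnb2 (r = 0.976) and Rasa3 (r = 0.975). The best values for Klf2, for Cog2 and Exoc4, were lower at r = 0.920 and 0.918.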

How the data were processed

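The submitters' processing notes name STAR 2.5.3a, Partek and mm10; annotation, counting and strand: not given in the sources used here. Per the labels' protocols, libraries came from 1 ng of total RNA, 14 amplification cycles and single reads of 50 bases. The authors deposited 1 table whose name says FPKM, but the deposited values were taken as RPM, because in each library the smallest step, shared by 1079 to 1285 genes, did not depend on gene length. The deposited values carry an offset of 0.0001. Among values of up to 20 steps, 59.5% to 61.5% lay within 0.02 of a whole step, too few for a count test. Reads given for members are values divided by the step, and amplified reads are not independent molecules.

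Limma 3.58.1 (R 4.3.3) with a variance trend was fitted to log2(RPM + 1), two-sided, for 14100 genes averaging 1 RPM or more, with Benjamini-Hochberg adjustment. Changes of low genes are understated on that scale. For members below that mean, group means were set against all 35 splits in an exact two-sided permutation test. The fit was tested on simulated data with known changes. Members and lists were chosen with earlier results of these data known. The labels name no animals, so p-values may measure technical spread alone.

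Named genes are the members, the 4 smallest p among the calls of each list (2 genes where a list has no call), the 2 genes most alike each tested member, and abundant markers. Cdh5, Cldn5, Emcn, Zbtb46 and further list members named by outcome were chosen after their values were seen. Of the genes this rule selects, 2 are not reported here. Fold changes are ratios of group means. Positions and exon lengths are from GENCODE vM21. Alternatives covered pseudocount, filter, scaling, trend, sample weights, a replicate block, voom and leaving out libraries.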

Additional observations from a re-analysis of the deposited data

Results flagged for a closer look

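Egr2 was at 0.179 RPM (7 reads) in PBS replicate 2 and without a read in the other PBS libraries, and Egr3 was at 0.0257 RPM (1 read) in the same library and without a read in the others. Both stood apart because 1 of 4 values lay far from the rest, for Egr3 within the 3-read floor. Since the other PBS values were all at 0, any read in 1 library gives the largest possible gap. The usual chance rate of 1 in 20 therefore does not apply, and the flags carry no weight of their own.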

How the results depend on the processing

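Klf6 kept its direction and its call in all 19 alternatives, Klf4 in 18, Nr4a1 in 16 and Egr1 in 15, and none of these 4 changed sign. The number of members higher was 1 to 5 when single libraries were left out, lowest without DT replicate 3, and 1 member, Nr4a2, was lower without both samples numbered 1. In these counts Egr2 and Nr4a2 reached the minimum mean only through the group where they are high, so their calls support nothing. Klf2 changed sign with the replicate block (-0.0896). It ran from -0.102 to 0.264 when single libraries were left out, negative without PBS replicate 4 or DT replicate 3. Only PBS has a replicate 4, so the block takes up that library. Its log2 changes for the 5 tested members equal those without PBS replicate 4, so it is no separate check of them. Over all genes, 1894 were higher and 2622 lower, and the number lower was 1701 with no filter, 1321 under median-ratio scaling, 1574 with the replicate block and 1208 (without DT replicate 3) to 3628 (without PBS replicate 1) when single libraries were left out. Median-ratio scaling moved the median change of all genes from -0.23 to -0.02 and the share of rises among calls from 41.9% to 64.1%. Genes of the related lists that were lower numbered 14, but 8 with no filter, 7 under median-ratio scaling, 23 with sample weights, 6 with the replicate block and 8 (without PBS replicate 4 or any DT library) to 24 (without PBS replicate 1) when single libraries were left out. The causes were not tested. Of 304 counts of single lists under alternatives, 58 moved by more than 1.5 times. Samples sharing a number correlated at 0.0419, 0.0485 and 0.0103 in their deviations. Among replicates 1 to 3, each DT library matched the PBS library of its own number best. PBS replicate 3, however, matched DT replicate 2 better, at 0.0192. These small values do not settle whether samples are paired, and the main fit used no pairing. The replicate block left 4 members higher. Dusp2, Dusp16, Cblb, Klf16, Hspe1, Hsph1, Jund, Zfp36l1 and Gadd45b lost their calls with it. Leaving out a DT library leaves 2 in that arm. Egr3 and Nr4a3 had at most 10 reads in any library.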
